A study of Mus musculus with 24 samples.

Results

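The genes of glycolysis, of pyruvate entry into mitochondria and of the citric acid cycle were followed across 6 groups of arrays from mouse cerebral cortex. The list had 43 genes, and a gene was included when a probe set of the array was annotated to it alone. This held for 41 genes (15 of glycolysis, 9 of pyruvate entry, 17 of the citric acid cycle) of the 18194 genes tested, and each gene was read from its probe set of highest mean level across the 24 arrays. Gpi1 and Eno1 had no such probe set in the tables used and were not analysed here. Gapdh was represented only by the array's control probe sets, of which the one at the 3′ end had the highest mean.

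Glycolysis splits glucose into pyruvate in the cytosol, and its flow is set largely by hexokinase, phosphofructokinase and pyruvate kinase. Pyruvate enters the citric acid cycle as acetyl-CoA through the pyruvate dehydrogenase complex, which kinases (Pdk genes) switch off and phosphatases (Pdp genes) switch on, or as oxaloacetate through pyruvate carboxylase. In brain, astrocytes carry pyruvate carboxylase and make new cycle intermediates with it, and several steps exist as isozymes that neurons and astrocytes use to different extents.

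The mice were adult heterozygous aldh1l1 - eGFP-L10a animals, in which the Aldh1l1 promoter, active mainly in astrocytes, drives a tagged ribosomal protein, and every group carried this transgene. RNA pulled down with the tagged ribosomes (bound fraction) was measured in 18 single animals, 6 per state. RNA left in the supernatant (unbound fraction, said to hold neurons and the glia that are not astrocytes) was measured in 6 pools of 3 animals, 2 pools per state, made from animals 1 to 3 and animals 4 to 6. Both were labelled total RNA, and the fractions were purified with different kits. Sleep-deprived mice were kept awake with new objects for 4 h of the light period. Waking mice were killed at about 3 to 5 am after a wake bout of over 1 h, having been awake for at least 70% of the preceding 6 to 7 h. Sleeping mice were killed at about 3 to 5 pm after a sleep bout of over 45 min, with at least 75% of the preceding 6 to 7 h asleep. Waking and sleep therefore also differ in time of day and lighting.

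The values are log2 RMA levels, and each difference below is given relative to the median difference of all genes tested in the same comparison (0.16 on the log2 scale for bound against unbound). Aldh1l1 itself averaged 10.90 ± 0.25 in the bound and 7.02 ± 0.17 in the unbound arrays (SD, n = 18 and 6), and Rpl10a 13.02 ± 0.42 and 11.69 ± 0.15. The mean level of 22 astrocyte markers ran between 11.93 and 12.20 in bound and between 8.45 and 9.01 in unbound arrays, and all 22 were higher in bound. The mean of 22 neuronal markers ran between 9.32 and 9.88 in bound and between 11.17 and 11.52 in unbound arrays, and 19 of the 22 were lower in bound. Arrays of the same group shared exactly tied values in 48 of 48 pairs and arrays of different groups in 0 of 228, so a separate normalization of each group and the group itself cannot be told apart in any comparison below. In such bulk fractions fewer cells of a type and less RNA per cell cannot be told apart either. The labels call the arrays biological replicates.

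In the comparison of the bound with the unbound fraction, averaged over the 3 states, 21 of the 41 genes were higher (51.2%, against 42.2% of all genes tested) and 8 lower (19.5%, against 27.2%) at an adjusted p under 0.05. The median difference of the 41 genes was 0.03, against 0 for all genes tested. The largest gains were Suclg2 and Idh2 of the citric acid cycle, then Pdk2, Aldoc and Pcx, and the largest losses were Eno2, Pdp1, Pdk1 and Pdk3. The split depends on scaling. With each array centred on its median, 14 genes were higher and 17 lower, and with quantile normalization repeated over all arrays 16 were higher and 14 lower. The split of all genes tested moved in the same direction, with 5048 higher and 7662 lower of 18194 when centred and 6110 higher and 6287 lower when quantile-normalized again. Of the 29 genes called, 19 (13 higher, 6 lower) kept call and direction under all 33 alternatives of processing or omitted arrays, other probe sets aside.

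**Figure D1:**
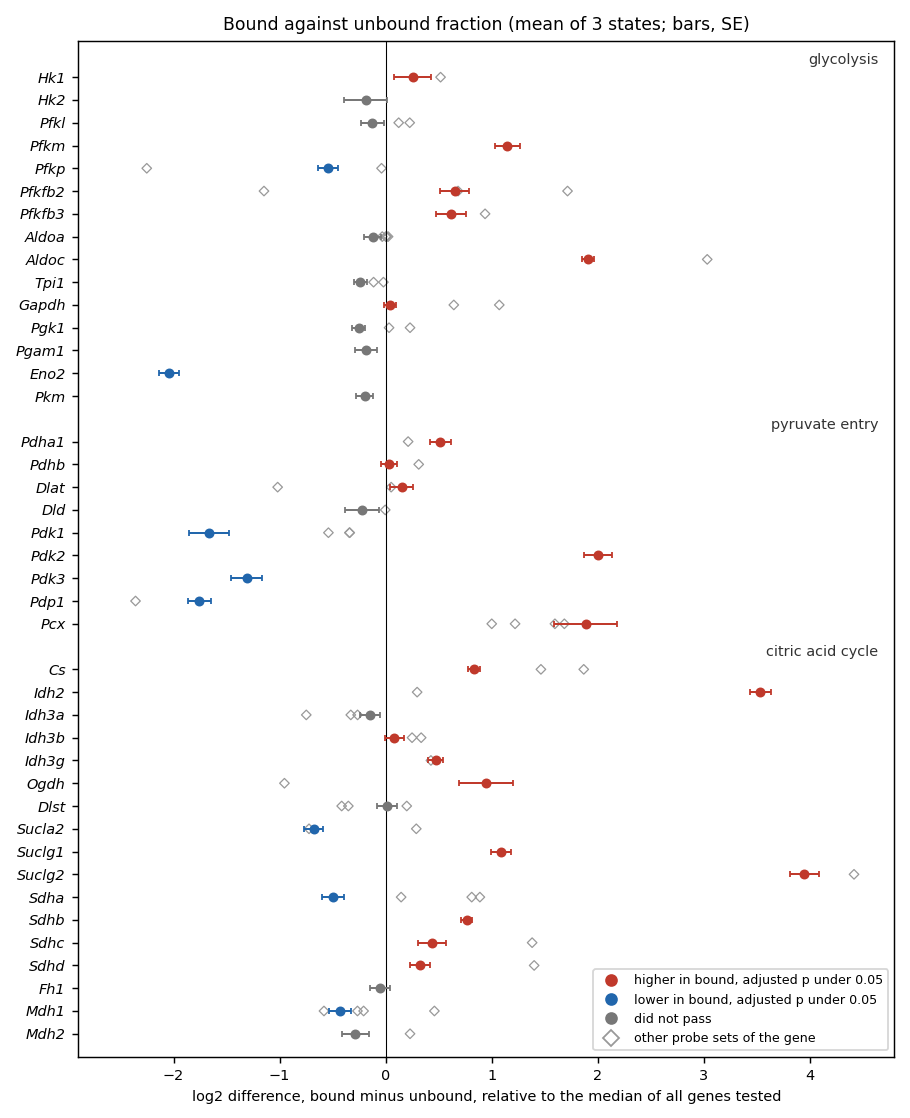
Log2 difference between bound and unbound fraction (x axis, relative to the median of all genes tested) for the 41 genes, by step of the pathway (y axis). Filled points are the probe set with the highest mean, bars its SE over 18 bound and 6 unbound arrays, and open diamonds the gene's other probe sets; Suclg2 and Idh2 lie farthest right at 3.95 and 3.54, and Eno2 farthest left at -2.04.

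In the upper part of glycolysis, muscle-type phosphofructokinase Pfkm had a lowest, median and highest level of 11.72, 12.17 and 12.50 in the bound arrays, against 10.74, 10.81 and 10.98 in the unbound arrays. All bound arrays lay above all unbound ones, and the difference was 1.15 ± 0.12 (SE, adjusted p = 1.83e-09), or 2.22-fold. The platelet type Pfkp had 10.34, 10.89 and 11.38 in the bound and 11.08, 11.27 and 11.57 in the unbound arrays. Its ranges overlapped, and it was lower in bound by the fit (-0.54 ± 0.10, adjusted p = 0.00132). A second Pfkp probe set gave -0.04 and did not pass, and the third, a dim one, gave -2.25. The liver type Pfkl did not pass (-0.12 ± 0.11, adjusted p = 0.78). Pfkfb2 and Pfkfb3, which set the level of the phosphofructokinase activator fructose 2,6-bisphosphate, were both higher in bound, by 0.65 ± 0.14 and 0.61 ± 0.14. One of the 3 other Pfkfb2 probe sets passed in the opposite direction (-1.15). The hexokinases, which trap glucose as its phosphate, differed little: Hk1 passed at 0.25 ± 0.17 (adjusted p = 0.0364), with the call lost in 7 of 33 alternatives, and Hk2 did not pass at -0.19 ± 0.20 (adjusted p = 0.902).

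Aldoc, the brain aldolase known from astrocytes, had 13.81, 13.99 and 14.08 in the bound arrays, against 11.67, 11.89 and 12.12 in the unbound arrays. No array of one fraction reached the other, and the difference was 1.91 ± 0.06 (adjusted p = 9.65e-18), or 3.76-fold. A second, less bright Aldoc probe set gave 3.03. The muscle-type aldolase Aldoa did not pass on its probe set with the highest mean (-0.12 ± 0.08), although it was lower with repeated quantile normalization (adjusted p = 0.00957), and its 4 other probe sets, between -0.03 and 0.02, did not pass either.

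Eno2, the enolase known as neuron-specific, ran the other way. It had 10.96, 11.44 and 11.65 in the bound arrays and 13.12, 13.29 and 13.34 in the unbound arrays. The fractions did not overlap, and Eno2 was 4.12-fold lower in bound (-2.04 ± 0.10, adjusted p = 1.52e-13). Other enzymes of glycolysis below aldolase, Gapdh aside, did not pass. Tpi1, Pgk1, Pgam1 and Pkm, which carry out the steps of triose phosphate isomerase, phosphoglycerate kinase, phosphoglycerate mutase and pyruvate kinase, had differences between -0.26 and -0.18 and did not pass, although with repeated quantile normalization all 4 were lower in bound at adjusted p between 6.78e-05 and 0.0219. A dimmer Pgk1 probe set passed in the opposite direction at 0.23.

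For Gapdh, glyceraldehyde 3-phosphate dehydrogenase, the difference varied with the position of the probe set. Its 3′ probe set gave 0.04 ± 0.06 between the fractions (adjusted p = 0.00285 in the fit without the median removed), the one in the middle 0.64 and the 5′ one 1.07. The 3′ minus 5′ level was 0.68 ± 0.33 in bound and 1.63 ± 0.16 in unbound arrays (SD, n = 18 and 6). In the bound fraction it also separated the animals, with 1.00 ± 0.03 in animals 4 to 6 and 0.36 ± 0.05 in animals 1 to 3 (SD, n = 9 each). The same measure for the control probe sets of Pcx went the other way, with 0.83 ± 0.40 in bound and 0.46 ± 0.52 in unbound arrays (SD, n = 18 and 6). For the actin controls it ranged between -0.42 and -0.06 in bound and between -0.45 and 0.04 in unbound arrays. The unbound actin means were -0.42 after sleep deprivation, 0.02 in waking and -0.09 in sleep (n = 2 each). The part of RNA quality or labelling in the fraction and state differences of the other genes was not tested.

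At the entry of pyruvate, Pcx (pyruvate carboxylase) had 7.62, 8.64 and 9.59 in the bound arrays, against 5.85, 6.50 and 7.32 in the unbound arrays. The fractions did not overlap, and the difference was 1.89 ± 0.30 (adjusted p = 2.92e-06), or 3.71-fold. All 4 control probe sets of Pcx passed in the same direction, at 1.00 to 1.69. The subunits of the pyruvate dehydrogenase complex differed less. Its alpha subunit Pdha1 was higher in bound by 0.52 ± 0.10 (adjusted p = 1.8e-06). The beta subunit Pdhb and the acetyltransferase Dlat passed at 0.03 and 0.15, and both calls were lost when arrays were centred, while 1 of 2 further Dlat probe sets passed at -1.02. Dld, the lipoamide dehydrogenase shared with other complexes, did not pass (-0.22 ± 0.16).

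The kinases that inactivate the complex split by isozyme. Pdk2 had 11.92, 12.36 and 12.79 in the bound arrays, against 9.93, 10.17 and 10.46 in the unbound arrays, with no overlap and a difference of 2.00 ± 0.13 (adjusted p = 4.22e-12), or 4.00-fold. Pdk1 had 7.80, 8.49 and 9.60 in the bound and 9.57, 10.05 and 10.39 in the unbound arrays. A single bound array, sleep animal 6, reached the range of the unbound pools, and the difference was -1.67 ± 0.19 (adjusted p = 4.51e-07). The 3 other Pdk1 probe sets were lower by less, at -0.54 (passed), -0.34 and -0.34 (not passed). Pdk3 had 6.46, 7.20 and 7.76 in the bound and 8.11, 8.41 and 8.71 in the unbound arrays, without overlap, and was 2.48-fold lower in bound (-1.31 ± 0.14, adjusted p = 3.46e-07).

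Pdp1, the catalytic subunit of the phosphatase that reactivates the complex, had 8.97, 9.53 and 10.02 in the bound arrays and 10.36, 11.47 and 11.58 in the unbound arrays. The fractions did not overlap, and Pdp1 was 3.39-fold lower in bound (-1.76 ± 0.11, adjusted p = 2.38e-11), with its second probe set at -2.36. Its counterpart Pdp2, not on the list, was higher in bound by 1.96, and so was the kinase Pdk4 by 2.86. Pdpr, the regulatory subunit of the phosphatase, did not pass (-0.05, adjusted p = 0.599).

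In the citric acid cycle 10 of 17 genes were higher (58.8%, against 42.2% of all genes tested) and 3 lower in bound (17.6%, against 27.2%). Succinyl-CoA synthetase forms GTP or ATP according to its beta subunit, and its beta subunits had the widest gap of the isozyme pairs compared. Suclg2, the GTP-forming subunit, had 9.63, 9.93 and 10.49 in the bound arrays, against 5.43, 5.77 and 6.68 in the unbound arrays. The fractions lay far apart, and the difference was 3.95 ± 0.14 (adjusted p = 8.26e-17), or 15.5-fold, with 4.42 on a second probe set. Sucla2, the ATP-forming subunit, had 9.94, 10.35 and 10.71 in the bound and 10.58, 10.88 and 11.08 in the unbound arrays. Its ranges overlapped, and it was lower in bound (-0.68 ± 0.09, adjusted p = 3.14e-05). Of its 2 dim other probe sets, 1 gave -0.72 and 1 passed the other way at 0.29. Suclg1, the alpha subunit that both share, was higher in bound by 1.09 ± 0.09 (adjusted p = 9.13e-11), between the beta subunits.

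Idh2, the mitochondrial NADP-dependent isocitrate dehydrogenase, had 10.98, 11.36 and 11.82 in the bound arrays, against 6.97, 7.77 and 8.24 in the unbound arrays. The fractions did not overlap, and the difference was 3.54 ± 0.10 (adjusted p = 4.53e-18), or 11.6-fold. A second Idh2 probe set gave 0.30 and did not pass. The NAD-dependent enzyme, made of 3 kinds of subunit, differed less. Idh3g was higher by 0.47 ± 0.07, without overlap of the fractions, while Idh3b passed at 0.08 and Idh3a did not pass (-0.15 ± 0.09).

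Citrate synthase Cs, which opens the cycle, was higher by 0.83 ± 0.06 (adjusted p = 2.55e-12), and by 1.47 and 1.87 on its other probe sets. Ogdh, the first subunit of the 2-oxoglutarate dehydrogenase complex, was higher by 0.95 ± 0.26 (adjusted p = 0.000651), without overlap of the fractions, but its other probe set passed in the opposite direction (-0.95). Dlst, the succinyltransferase of that complex, did not pass (0.02 ± 0.09), nor did fumarase Fh1 (-0.06 ± 0.10). Among the subunits of succinate dehydrogenase, Sdhb (0.76 ± 0.05), Sdhc (0.44 ± 0.13) and Sdhd (0.32 ± 0.09) were higher in bound and Sdha was lower (-0.50 ± 0.11). The direction of Sdha rests on its brightest probe set, since 2 of the other 3 passed at 0.81 and 0.89 and the third gave 0.15. For Sdhc and Sdhd the second probe set gave 1.38 and 1.40, so all 4 subunits had a probe set higher in bound. Of the malate dehydrogenases, cytosolic Mdh1 was lower in bound (-0.43 ± 0.10, adjusted p = 0.0278), and mitochondrial Mdh2 did not pass (-0.29 ± 0.13), with a second probe set that passed at 0.23. With repeated quantile normalization Mdh2 was lower (adjusted p = 0.0118).

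Among the 29 called genes, 6 (Dlat, Mdh1, Ogdh, Pfkfb2, Sdha and Sucla2) had a probe set that passed against the direction of the one with the highest mean. Of the 23 called genes with more than 1 probe set, 14 had the same call on every one.

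**Figure D2:**
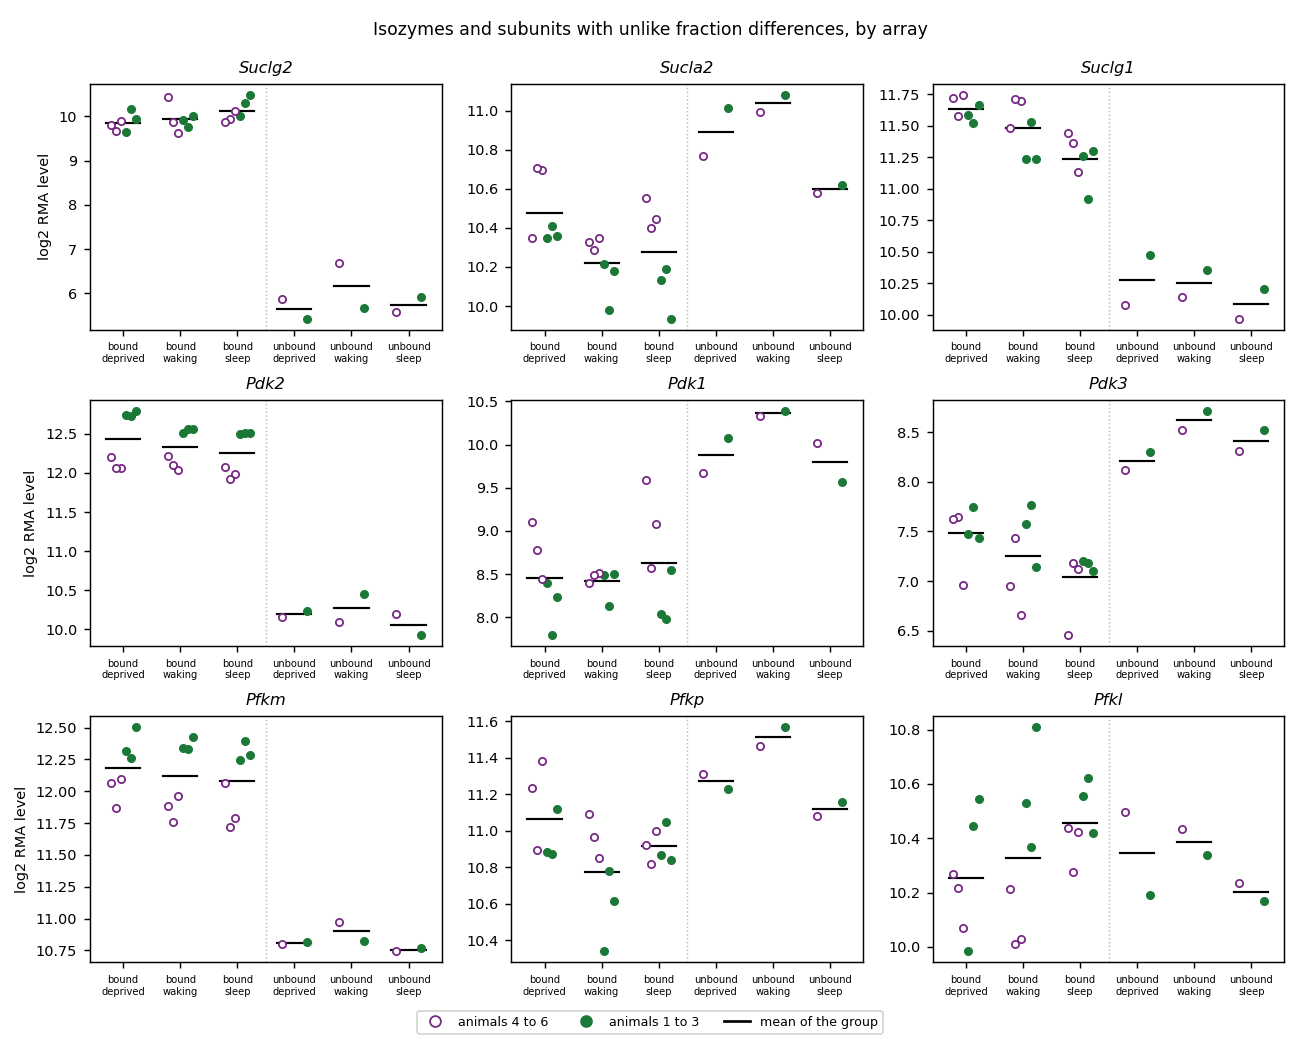
Log2 RMA level (y axis) of 9 subunits and isozymes in each array, by fraction and state (x axis), with open points for animals 4 to 6, filled points for animals 1 to 3 and lines for group means. Suclg2, Pdk2 and Pfkm lie higher in all bound arrays and Pdk3 lower, while the ranges of Sucla2, Pdk1, Pfkp and Pfkl overlap between the fractions.

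Among the pairs of listed isozymes compared, Suclg2 and Sucla2 (4.63) and Pdk2 and Pdk1 (3.67) had the widest gaps between their fraction differences. Their promoters are shown because these pairs carry the contrast within a step. The sequences are the 150 bases before the first start listed, from RefSeq on build GRCm38.p6, written 5′ to 3′ on the gene's strand. Capitals mark matches, on either strand, to the Sp1 box GGGCGG, the NRF1 motif (by its name alone), or the E-box CACGTG, which contains the hypoxia response core ACGTG.
Suclg2, minus strand, chr6:95718847-95718996: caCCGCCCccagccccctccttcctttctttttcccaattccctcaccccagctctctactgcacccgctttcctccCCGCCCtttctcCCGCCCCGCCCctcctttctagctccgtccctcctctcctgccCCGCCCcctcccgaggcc
Sucla2, plus strand, chr14:73552636-73552785: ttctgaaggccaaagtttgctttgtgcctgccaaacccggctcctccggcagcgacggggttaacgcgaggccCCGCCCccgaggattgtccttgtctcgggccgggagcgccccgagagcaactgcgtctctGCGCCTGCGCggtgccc
Pdk2, minus strand, chr11:95041372-95041521: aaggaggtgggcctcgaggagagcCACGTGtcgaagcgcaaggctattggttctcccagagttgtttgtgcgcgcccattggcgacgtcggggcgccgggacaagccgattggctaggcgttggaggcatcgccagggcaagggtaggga
Pdk1, plus strand, chr2:71873074-71873223: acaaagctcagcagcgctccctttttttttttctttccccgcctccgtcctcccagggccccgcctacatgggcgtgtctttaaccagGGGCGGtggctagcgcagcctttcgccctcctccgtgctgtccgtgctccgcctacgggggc

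Suclg2 shows a run of Sp1 boxes, Sucla2 an Sp1 box and an NRF1 match, Pdk2 an E-box and Pdk1 an Sp1 box. In the 250 bases before the start, counted over all starts of a gene, 38 of the 41 genes had a promoter in the table. The Sp1 box was present in 24 of them (63.2%), against 35.4% of the 27025 genes with a promoter. The hypoxia response core was present in 16 (42.1%, against 18.5%), among them the hypoxia-responsive glycolytic genes Hk2, Aldoa, Pgk1, Pgam1, Pkm and Pfkfb3. The E-box was present in 6 (15.8%, against 6.86%), namely Pfkm, Pfkfb2, Pfkfb3, Pdk2, Pcx and Ogdh, and all 6 were higher in bound, as were 20 of the 38 genes with a promoter. Of the genes with the Sp1 box 11 were higher, 5 lower and 8 not called, and of those with the hypoxia response core 8 were higher, 3 lower and 5 not called. The 6 genes with the E-box, which contains the core, are counted again among these 8. Ogdh and Pfkfb2 each also had a probe set that passed lower in bound (-0.95 and -1.15). The NRF1 motif was present in 3 (7.89%, against 4.23%), namely Sucla2, Sdha and Sdhd. The cAMP response core was present in 2 (5.26%, against 1.77%), and motifs of nuclear factor I and of the estrogen-related receptor were present in 0 of the 38, against 0.0444% and 1.3% of all genes. These are matches of letters and say nothing of binding. The 27025 genes are all those with a promoter listed, whether tested here or not. All 41 listed genes lay above the median level of the genes tested, and no shares were taken over genes of like level.

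Of 42 further genes of these pathways, 36 were measured, and 23 were higher (63.9%, against 42.2% of all genes tested) and 5 lower in bound (13.9%, against 27.2%). The higher ones included Pgm1 (phosphoglucomutase, 2.62), Galm (galactose mutarotase, 2.31), the mitochondrial pyruvate carrier Mpc1 (1.51), the cytosolic isocitrate dehydrogenase Idh1 (1.56), malic enzyme Me1 (1.55) and cytosolic aconitase Aco1 (1.40). The lower ones were Tigar (a fructose 2,6-bisphosphatase, -2.01), the muscle phosphoglycerate mutase Pgam2 (-1.64), Hkdc1 (-1.34), the mitochondrial malic enzyme Me3 (-0.75) and Fbp1 (-0.59, dim in the bound arrays). The list was chosen with earlier results of these data known.

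The state comparisons in the bound fraction ask whether RNA on astrocyte ribosomes changes between sleep and wake. Few genes of the pathway passed. After sleep deprivation against sleep, 2 of 41 genes were higher (4.88%, against 12.3% of all genes tested) and 0 lower (against 2.02%). In waking against sleep 1 was higher (2.44%, against 9.07%) and 0 lower (against 2.14%). These shares depend on level, since all 41 genes lay above the median level of the genes tested and 25 in its top 10%. With dim genes left out, 291 of 11605 genes were higher after sleep deprivation and 113 in waking. Of the listed genes 0 were then higher in either comparison. At an unadjusted p under 0.05 there were 5 of the 41 genes in each comparison, against 4796 of all 18194 genes after sleep deprivation and 4211 in waking. The median of the 41 genes was -0.09 after sleep deprivation and -0.10 in waking, relative to all genes tested. Below the all-gene median lay 29 genes after sleep deprivation and 32 in waking. These counts belong to this scaling. The all-gene median itself was 0.112 after sleep deprivation and 0.09 in waking, against 0.002 and 0.004 with quantile normalization repeated. Under the latter Aldoa, Aldoc, Tpi1, Gapdh, Pgk1 and Pgam1 moved up in both comparisons, while Pkm stayed lower at -0.158 and -0.188.

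Pdp1 had a lowest, median and highest level of 9.53, 9.77 and 10.02 in sleep-deprived mice, against 8.97, 9.24 and 9.52 in sleeping mice. All 6 sleep-deprived animals lay above all 6 sleeping ones, if only just, and Pdp1 rose by 0.42 ± 0.14 (adjusted p = 0.0164), or 1.34-fold. The call was lost when arrays were centred (adjusted p = 0.0571) or quantile-normalized again (0.0556), and its second probe set gave 0.16 and did not pass (adjusted p = 0.49). Within animals 4 to 6 the difference was 0.30 (adjusted p = 0.245), and within animals 1 to 3 it was 0.54 (adjusted p = 0.0475). In waking mice Pdp1 had 9.15, 9.62 and 10.002, and it did not pass against sleep (0.26 ± 0.14, adjusted p = 0.141).

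Suclg1 had 11.52, 11.62 and 11.75 in sleep-deprived mice, against 10.92, 11.28 and 11.45 in sleeping mice. These groups did not overlap either, and Suclg1 rose by 0.29 ± 0.11 (adjusted p = 0.0206), or 1.22-fold. The call was lost when arrays were centred (adjusted p = 0.116), and the difference was 0.24 within animals 4 to 6 (adjusted p = 0.138) and 0.33 within animals 1 to 3 (adjusted p = 0.0981). Waking mice had 11.23, 11.51 and 11.71, and the difference from sleep was 0.16 ± 0.11 (adjusted p = 0.186).

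Pfkfb3 was the gene that rose in waking. It had 8.604, 9.09 and 9.73 in waking mice and 7.89, 8.54 and 8.64 in sleeping mice. The groups overlapped in 1 waking animal, animal 3, and Pfkfb3 rose by 0.61 ± 0.19 (adjusted p = 0.0214), or 1.53-fold. Sleeping animal 2 was far below the other sleeping animals, and without it the difference was 0.50 and the adjusted p 0.0503. The call was also lost when arrays were centred (adjusted p = 0.051). Within animals 4 to 6 the difference was 0.69 (adjusted p = 0.0833), and within animals 1 to 3 it was 0.53 (adjusted p = 0.0994). The second Pfkfb3 probe set gave -0.16 (adjusted p = 0.897). In sleep-deprived mice Pfkfb3 had 8.58, 8.78 and 9.48, and it did not pass against sleep (0.31 ± 0.19, adjusted p = 0.164).

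Beside these results, the mean of 14 microglial markers was between 6.16 and 6.34 in waking, between 5.66 and 6.37 in sleep-deprived and between 5.71 and 6.15 in sleeping bound arrays, and 13 endothelial markers averaged 5.65 ± 0.14 in waking, 5.44 ± 0.23 in sleep-deprived and 5.26 ± 0.09 in sleeping arrays (SD, n = 6 each). The neuronal markers averaged 9.55 ± 0.19 in waking, 9.55 ± 0.17 in sleep-deprived and 9.57 ± 0.16 in sleeping arrays. The part of these cells in the state differences was not tested.

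Of the other 39 genes in sleep deprivation and 40 in waking, none passed. Hk2, the inducible hexokinase, gave 0.44 ± 0.21 after sleep deprivation (adjusted p = 0.0881) and 0.41 ± 0.21 in waking (adjusted p = 0.15). Suclg2 gave -0.39 ± 0.14 after sleep deprivation (adjusted p = 0.228) and -0.27 ± 0.14 in waking (adjusted p = 0.499), and Pkm -0.24 in both. As an alternative, the animal number was used as a replicate block in limma. Deviations of bound arrays with the same number correlated at 0.27 to 0.53. Once the difference between the sets of animals pooled for the unbound arrays was removed, they correlated at -0.11 to 0.18. The numbers thus did not pair single animals beyond these sets. Under this block Pcx was lower in waking (-0.47, adjusted p = 0.021) and Pdk3 higher after sleep deprivation (0.33, adjusted p = 0.0475). In both comparisons Aldoa, Aldoc, Tpi1, Gapdh, Pgk1 and Pgam1 lay between -0.15 and -0.04, with no call. With quantile normalization repeated they lay between -0.076 and 0.052, again with no call.

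Sleep deprivation and waking were also compared directly. Of the 41 genes 0 were higher (against 4.17% of all genes) and 0 lower (against 2.67%). By limma 3 of the 41 had an unadjusted p under 0.05, against 3412 of all 18194 genes. The 3 were Pfkp (0.27 ± 0.13), Dlst (0.25 ± 0.12) and Sucla2 (0.23 ± 0.12), at adjusted p between 0.214 and 0.239.

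Among the further pathway genes in bound, 1 of 36 was higher (2.78%, against 12.3% of all genes tested) and 3 lower (8.33%, against 2.02%) after sleep deprivation. In waking 1 was higher (2.78%, against 9.07%) and 5 lower (13.9%, against 2.14%). Dhtkd1, a paralogue of Ogdh, gave -1.82 after sleep deprivation and -1.26 in waking. Fbp1, fructose 1,6-bisphosphatase, gave -0.74 after sleep deprivation and -0.76 in waking. Eno3 (-1.001) and Adpgk (-0.84) passed in waking. In each comparison the higher gene was 1 of the 8 further genes of pyruvate entry, and 2 of the 11 of the citric acid cycle were lower. Dhtkd1 and Fbp1 were dim. Dhtkd1 averaged 3.69 after sleep deprivation, 4.22 in waking and 5.40 in sleep, and Fbp1 2.38 after sleep deprivation, 2.34 in waking and 3.01 in sleep.

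**Figure D3:**
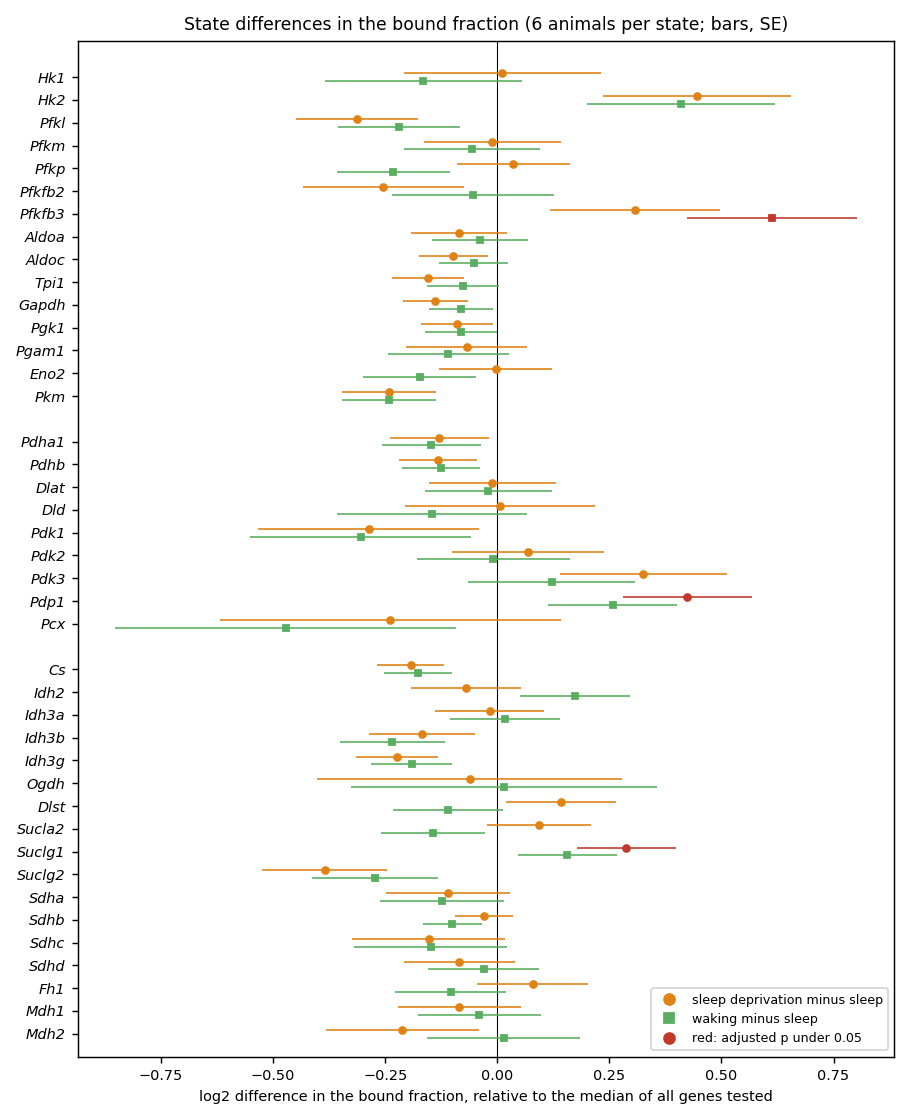
Log2 differences in the bound fraction (x axis, relative to the median of all genes tested) of the 41 genes (y axis) for sleep deprivation minus sleep (circles) and waking minus sleep (squares), with SE bars over 6 animals per state. The 3 calls, in red, are Pdp1 and Suclg1 after sleep deprivation at 0.42 and 0.29 and Pfkfb3 in waking at 0.61; both comparisons share the sleep arrays.

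In the unbound fraction the same comparisons rest on 2 pools per state. In sleep deprivation against sleep 1 of 41 genes was higher (2.44%, against 1.42% of all genes) and 0 lower (against 0.451%). In waking against sleep 2 were higher (4.88%, against 5.72%) and 0 lower (against 0.605%). Sleep deprivation against waking gave 0 higher (against 0.242%) and 0 lower (against 0.517%). By limma 1 of the 41 genes had an unadjusted p under 0.05, against 3822 of all 18194 genes.

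Pdp1 again led. Its unbound levels were 11.46 and 11.57 after sleep deprivation and 11.58 and 11.47 in waking, against 10.36 and 10.42 in sleep. Every pool of both wake states lay above both sleep pools. The difference from sleep was 0.94 ± 0.15 after sleep deprivation (adjusted p = 0.0389) and 0.83 ± 0.15 in waking (adjusted p = 0.0316). Both Pdp1 calls were lost by limma when arrays were centred (adjusted p = 0.0575 and 0.0727) or quantile-normalized again (0.0586 and 0.0764). The second Pdp1 probe set passed in neither comparison. Dlst had 9.30 and 9.27 in waking, against 8.48 and 8.52 in sleep, and passed at 0.49 ± 0.15 (adjusted p = 0.0451). The Dlst call was lost by limma with centring (adjusted p = 0.175) or repeated quantile normalization (0.184), and none of its 3 other probe sets passed. With 1 pool of a comparison left out, a state keeps a single pool, so calls cannot be judged. The Pdp1 difference was then 0.86 to 1.04 after sleep deprivation and 0.78 to 0.88 in waking, and the Dlst difference 0.45 to 0.52. The mean of the neuronal markers in the unbound pools was 11.40 ± 0.015 after sleep deprivation, 11.50 ± 0.02 in waking and 11.21 ± 0.05 in sleep (SD, n = 2 each). Relative to all genes the median of the neuronal list was 0.00 after sleep deprivation and -0.01 in waking, with 1 and 0 of the 22 markers called higher. The astrocyte markers averaged 8.79 ± 0.04 after sleep deprivation, 9.01 ± 0.003 in waking and 8.48 ± 0.04 in sleep, and 1 of 22 was called higher after sleep deprivation and 4 in waking (list medians 0.09 and 0.17 relative to all genes). The endothelial markers averaged 5.44 ± 0.01 after sleep deprivation, 5.46 ± 0.09 in waking and 4.99 ± 0.08 in sleep, with 0 of 13 called higher after sleep deprivation and 2 in waking. The part of astrocytes and endothelial cells in these differences was not tested.

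Whether a state effect differed between the fractions was tested directly. For the waking effect 0 genes had a larger value in bound (against 1.89% of all genes) and 1 a smaller one (2.44%, against 3.72%). This was Dlst, whose waking effect was -0.11 in bound and 0.49 in unbound, a difference of -0.59 ± 0.23 (adjusted p = 0.0418). The call was lost in 15 of 25 alternatives and the sign reversed in 1, and 3 other Dlst probe sets gave positive differences that did not pass. With the sets of animals as a replicate block Pkm also passed (adjusted p = 0.0309). For the sleep deprivation effect 0 genes had a larger (against 2.91%) and 0 a smaller value in bound (against 1.98%). By limma 4 of the 41 genes had an unadjusted p under 0.05, against 3011 of all 18194 genes. Idh2 (-0.74 ± 0.25, adjusted p = 0.0683) and Idh3g (-0.47 ± 0.17, adjusted p = 0.0834) passed with the block, at 0.0434 and 0.0309.

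**Figure D4:**
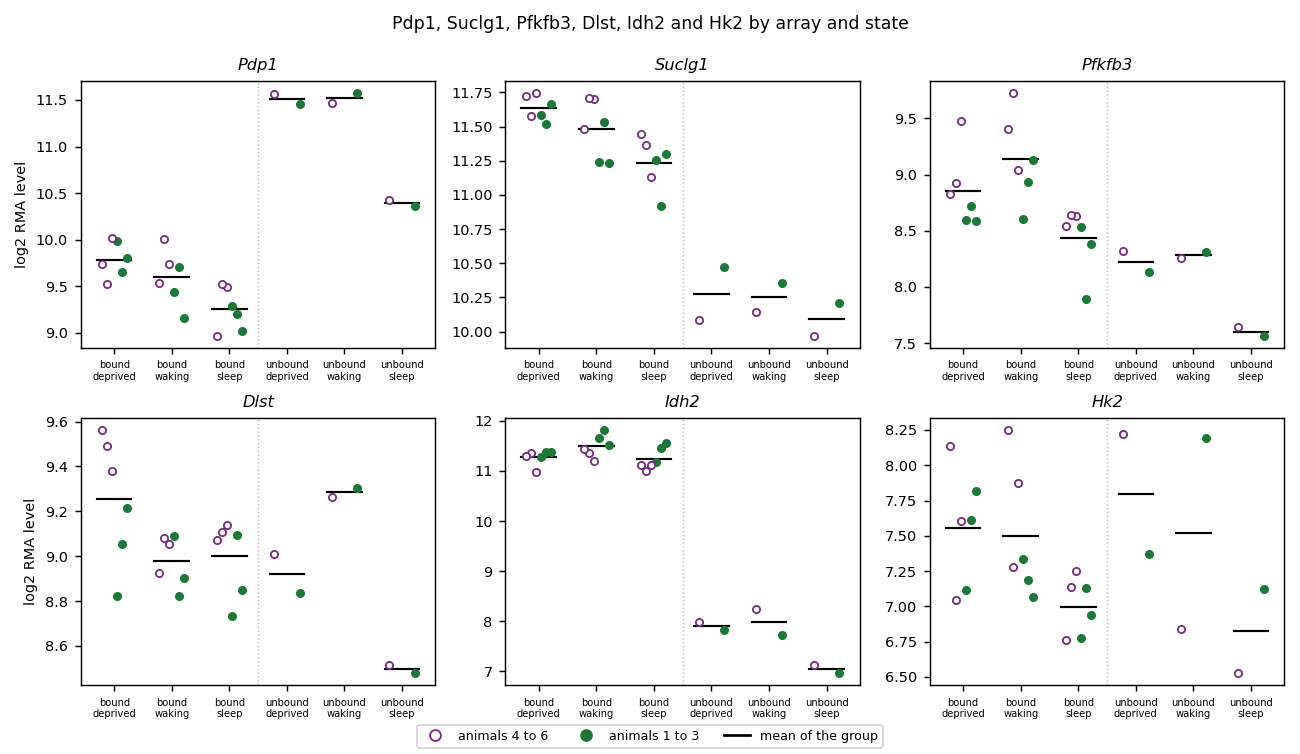
Log2 RMA level (y axis) of 6 genes in each array, by fraction and state (x axis); open points are animals 4 to 6, filled points animals 1 to 3 and lines group means. Pdp1 is lower in both unbound sleep pools than in the other unbound pools, Dlst is higher in the unbound waking pools than in the other unbound pools, and Hk2 varies widely within groups.

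The bound arrays also fell into the sets of animals 4 to 6 and animals 1 to 3, from which the unbound pools were made. With state in the fit, 14 of the 41 genes were higher in animals 4 to 6 (against 22.9% of all genes) and 13 lower (against 21%), a comparison added after seeing the data. More of the 41 genes passed here than in any comparison of states. What separated the sets is not given in the labels, which offer only the animal numbers.

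Pcx ranged between 7.62 and 8.38 in animals 4 to 6, against 8.91 and 9.59 in animals 1 to 3. The sets did not overlap in any state, and the difference was -1.26 ± 0.09 (adjusted p = 7.04e-09). Ogdh ranged between 8.89 and 9.56 in animals 4 to 6, against 10.12 and 10.56 in animals 1 to 3 (-1.12 ± 0.09). Hk1 (-0.65), Pdk2 (-0.54) and Pfkm (-0.44) were lower too. In the other direction, Dld (0.62), Pdk1 (0.53), Mdh2 (0.50), Sdhc (0.49) and Pfkfb3 (0.42) were higher in animals 4 to 6. The astrocyte marker mean was 12.06 ± 0.09 in animals 4 to 6 and 12.11 ± 0.05 in animals 1 to 3 (SD, n = 9 each), and the Gapdh 3′ minus 5′ level separated the sets fully. Its part in these differences was not tested.

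**Figure D5:**
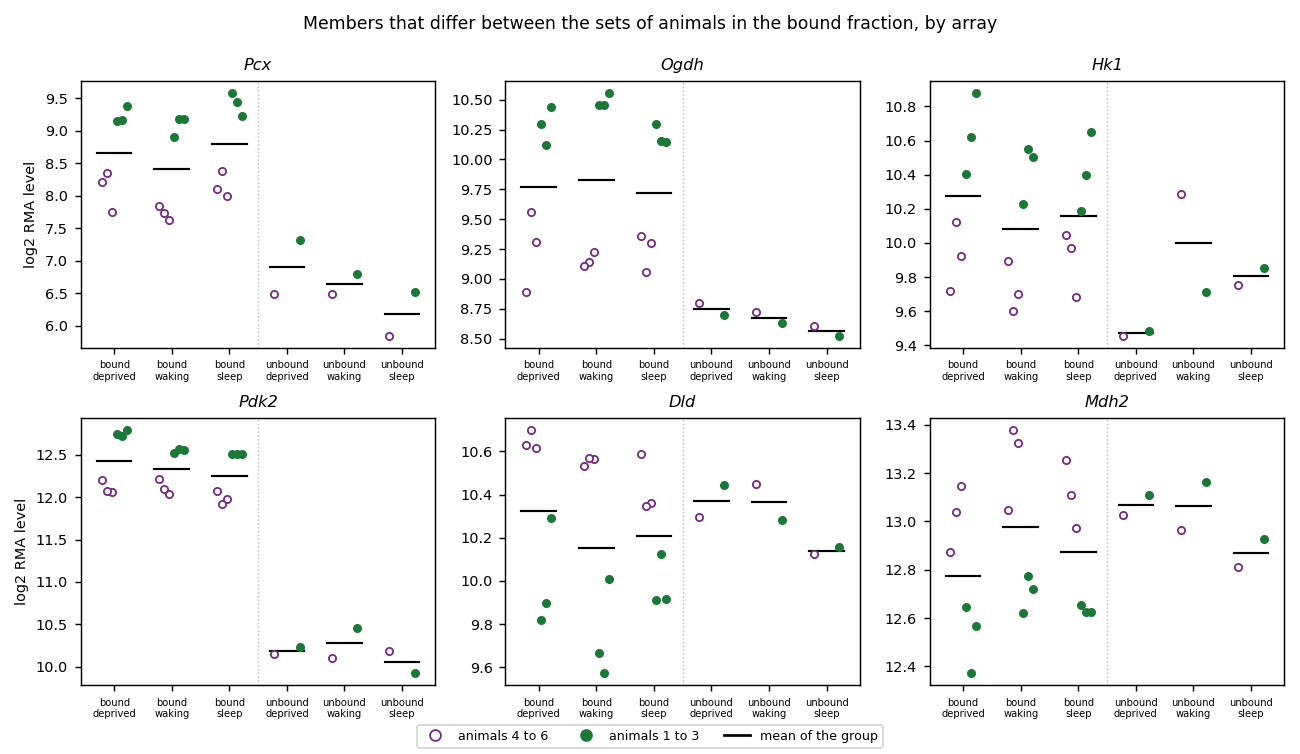
Log2 RMA level (y axis) of 6 genes in each array, by fraction and state (x axis); open points are animals 4 to 6, filled points animals 1 to 3 and lines group means. In bound, Pcx, Ogdh and Pdk2 are lower in every array of animals 4 to 6 than in any of animals 1 to 3, and Dld and Mdh2 higher.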

How the data were processed

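The arrays held 45101 probe sets with no missing value. The authors deposited log2 values made with RMA as the submitters' processing notes name it; its version and which arrays were normalized together are not given in the sources used here. Probe sets annotated to 1 gene symbol (34952) were used; 932 with several symbols and 9160 without one were not. Control probe sets were left out except the 7 annotated to Gapdh or Pcx. No depth exists for arrays, so the number of arrays limits precision.

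Linear models with empirical Bayes moderation (limma 3.58.1, R 4.3.3) were fitted over 18194 genes, with Benjamini-Hochberg adjustment over all of them and a threshold of 0.05. Calls come from the fit as it is, and printed differences have the median of all genes subtracted. For states, the 18 bound and 6 unbound arrays were fitted separately; fractions and interactions were fitted over all 24. The script was tested on simulated data. The genes and lists were chosen with earlier results of these data known. Any of the listed genes could be named, and further pathway genes only past the threshold. Promoters were shown for isozyme pairs of listed genes that passed in opposite directions, the widest gaps first. Deviations of bound arrays with the same animal number correlated at 0.27 to 0.53 in 18 pairs. After the difference between animals 4 to 6 and animals 1 to 3 was removed they gave -0.11 to 0.18. The numbers therefore do not pair single animals beyond these sets, and the block was used only as an alternative. Unbound pools gave 0.00 to 0.03 in 3 pairs. Alternatives were the replicate block, the sets of animals as a block, repeated quantile normalization, centred arrays, the mean of probe sets, all probe sets, a filter on dim genes, an intensity trend, array weights and each array left out. Figures used matplotlib.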

Additional observations from a re-analysis of the deposited data

Results flagged for a closer look

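Of 123 groups of 6 bound arrays (41 genes in 3 states), 5 held an array far from the others, where chance flags about 1 in 20 groups. Pfkfb3 in sleeping animal 2 was at 7.89, with the next array at 8.38. Tpi1 in waking animal 3 was at 12.08, with the next at 12.31. Pdk1 in waking animal 2 was at 8.13, with the next at 8.39. Pdk3 in sleeping animal 6 was at 6.46, with the next at 7.10. Idh2 in sleep-deprived animal 4 was at 10.98, with the next at 11.29. In each case the array was the lowest of its group.

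The waking effect on Dlst differed between the fractions by -0.59 (bound minus unbound, adjusted p = 0.0418 by limma).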

How the results depend on the processing

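Over the called genes, 1084 values under another processing or with an array left out gave 999 with the same call and direction, 75 past the threshold no longer and 10 reversed; 51 values of other probe sets gave 27, 11 and 13. Centring moved the genes lower in bound than in unbound to 17 and repeated quantile normalization to 14, against 8. In bound waking against sleep, the count of higher genes was 0 with centring, against 1052 of all 18194 genes. It was 0 without dim genes, against 113 of 11605, and 2 with probe set means, against 2070. The lower count was 1 with the replicate block, against 664, or the set block, against 752. In bound sleep deprivation against sleep the higher count was 1 with quantile normalization (against 1030 of 18194) and 0 with centring (against 1316). It was 0 without dim genes (against 291 of 11605) and 4 with probe set means (against 2876). In bound sleep deprivation against waking the higher count was 1 with the set block (against 1330 of 18194) or probe set means (against 903). In the unbound pools, whose numbers do not pair by the check, either block gave 0 higher genes, as over all 18194 genes. With the replicate block the adjusted p by limma was 0.0629 for Pdp1 and 0.0697 for Dlst in waking and 0.0782 for Pdp1 in sleep deprivation. Quantile normalization and centring also gave 0, against 60 and 76 of all genes for sleep deprivation and 0 for waking. Without dim genes the counts were 0 for sleep deprivation (against 0 of 11350) and 1 for waking (against 124). With an intensity trend they were 3 for sleep deprivation (against 1002 of 18194) and 13 for waking (against 2713). For the waking effect between fractions the lower count was 2 with either block (against 1020 of 18194) or array weights (against 1290). It was 0 with quantile normalization (against 449), centring (against 255) or without dim genes (against 35 of 11574). For the sleep deprivation effect the lower count was 2 with either block (against 541) or weights (against 696) and 1 with the trend (against 395). With each array left out in turn, the ranges were 18 to 22 higher and 7 to 8 lower in bound against unbound. They were 0 to 1 higher in bound waking (0 without sleeping animal 2), 2 to 3 in bound sleep deprivation and 0 to 2 lower for the waking effect. In the unbound comparisons a state then keeps a single pool, so no count is given. The replicate block changed no other call than those named here and in the results.

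Reversed differences in bound against unbound were Gapdh -0.025 (quantile) and -0.065 (without dim genes), Pdhb -0.076 (without dim genes) and -0.005 and -0.017 (without waking pool 1 and sleep-deprived pool 2, in a range of -0.017 to 0.081 over omitted arrays), Idh3b -0.028 (without dim genes), Dlat -0.29, Ogdh -0.009 and Sdha 0.31 (probe set means), and, on other probe sets, Pfkfb2 -1.15, Dlat -1.02, Ogdh -0.95, Sucla2 0.29, Sdha 0.81, 0.89 and 0.15, and Mdh1 0.46. Pfkfb3 in bound waking reversed to -0.16 on its other probe set, and Dlst in unbound waking to -0.24; its difference between fractions reversed to 0.065 with probe set means and to 0.28, 0.24 and 0.39 on other probe sets. The causes were not tested. The other Dlst probe sets had mean levels of 2.77 to 5.89, which limits their precision.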
